A study of Arabidopsis thaliana with 3 samples.

Results

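A set of 113 genes was at least 2-fold lower in nst1-1 nst3-1 stems than in wild-type stems on each of 3 two-colour arrays. They come from 134 genes, 1.45% of the 9253 measured, that met this limit on every array. The 21 others were set aside by name and include xylan synthesis and acetylation genes, the lignin gene HCT, reductase, oxidase and kinase genes, and members of named enzyme families. Because the genes were chosen by the log ratios themselves, on all 3 arrays, their values are given as a description, and no test is made of any of them and nothing is read from the 1.45%.

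RNA came from the lowest 4 cm of inflorescence stems 12 to 17 cm tall, from untreated plants in cycles of 8 h light and 16 h dark. The mutant carries T-DNA insertions in NST1 and NST3, and its 3 samples, numbered #1 to #3 in the labels, are called lines 1, 2 and 3 here. The design text calls the lines independent, but all share the allele names nst1-1 and nst3-1, and neither plant age nor the number of stems per sample was given in the sources used here. Wild type, with neither insertion, was the second RNA on every array, and whether it was 1 extract or several was likewise not given. If replicates were not separate plants, the SDs below measure only the spread between these samples.

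NST1 and NST3 encode NAC-domain transcription factors that act together in the fibres of the Arabidopsis stem. Fibres lie between and beside the vascular bundles, and after they stop growing they lay down a thick secondary wall of cellulose, xylan and lignin before they die. The labels describe the mutant as unable to make secondary xylem in the stem and hypocotyl. Building such a wall draws on more than the wall enzymes: cortical microtubules guide cellulose deposition, vesicles carry wall material to the plasma membrane, and plastids feed the shikimate pathway, which supplies phenylalanine for lignin. In whole stem pieces such as these, fewer cells of a type and less RNA per cell cannot be told apart.

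Each value is a log2 ratio, mutant over wild type, so that -1 is a 2-fold and -2 a 4-fold lower signal in the mutant. The mutant was labelled with Cy5 for lines 1 and 3 and with Cy3 for line 2, and the ratios of line 2 were turned. Direction rests on reading the deposited values as Cy5 over Cy3, and size on reading them as log10, and the sources used here state neither. Before turning, the deposited columns correlated at -0.488 between lines 1 and 2 and at -0.784 between lines 2 and 3, across genes. Neither NST1 nor NST3 was among the measured genes, nor was any of the 7 vessel and fibre markers, so neither the genotype nor the tissue was checked through them. A gene is called measured here if the annotation used lists it alone for a spot, and 12861 of the 22236 spots had no listed gene. Genes not measured in this sense may still be on the array.

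The means of the 113 genes ran on without a gap. Their mean log2 ratio ranged from -3.19 to -1.09, with a median of -1.63 (3.1-fold lower), against a median of 0.013 over all 9253 genes. A mean at least 3-fold lower was seen for 60 genes, at least 4-fold for 27 and at least 8-fold for 2. On every array taken singly, 35 were at least 3-fold lower and 16 at least 4-fold lower, and none was 8-fold lower throughout. For 102 of the genes the main symbol in the gene table is the locus code, as it is for 7955 of all 9253 genes. Of the 113, 112 rest on 1 spot per array, so no second probe checks them. The exception, the protein kinase gene AT2G40120, is the average of 2 spots, which did not both meet the limit on every array when taken singly.

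**Figure D1:**
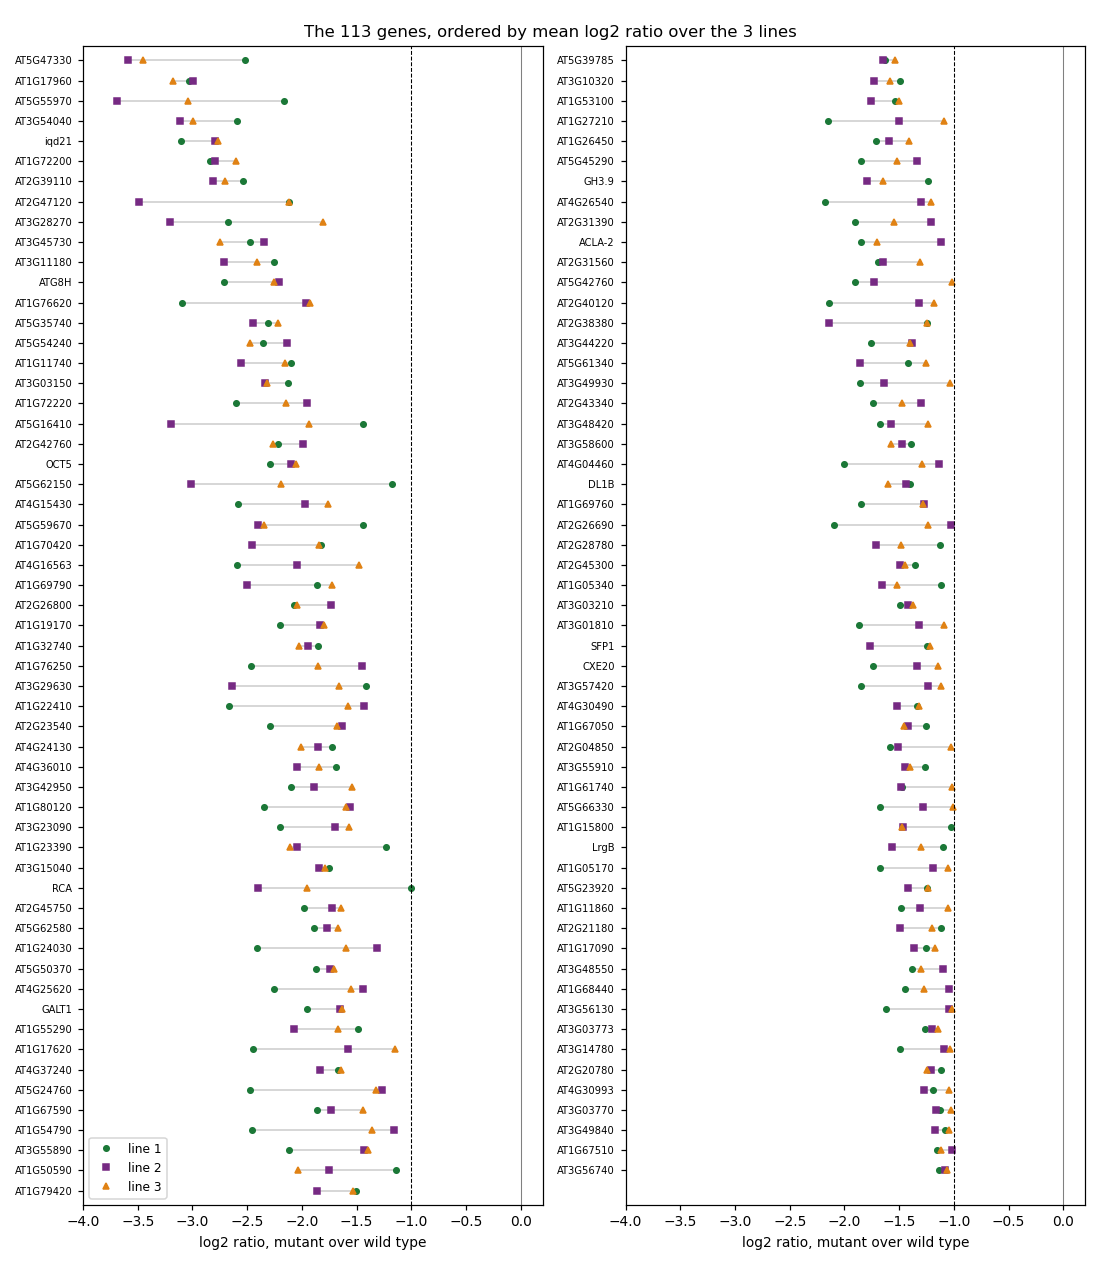
Log2 ratios (mutant over wild type, horizontal axis) of the 113 genes in lines 1, 2 and 3, ordered by their mean. Grey bars join the lowest and highest line, the dashed line marks a 2-fold decrease and the solid line no difference; AT5G47330 has the lowest mean, -3.19, and AT3G56740 the highest, -1.09.

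The lowest mean belonged to AT5G47330, an alpha/beta hydrolase gene of the thioesterase type, with log2 ratios of -2.52, -3.59 and -3.45 in lines 1, 2 and 3 (mean -3.19 ± 0.58, SD, n = 3 lines), or 9.11-fold lower. Line 1 was the highest of its values, though still more than 4-fold below wild type. AT1G17960, which encodes a threonyl-tRNA synthetase, the enzyme that loads threonine onto its tRNA, measured -3.03, -2.99 and -3.18, and was 8.38-fold lower with little difference between lines. AT5G55970, for a RING-finger protein, had values of -2.16, -3.69 and -3.04. Here the lines lay far apart, and line 2 gave the lowest value of any of the 113 genes on any array. AT3G54040, for a PAR1 protein, was at -2.59, -3.12 and -2.996. Next came iqd21 (AT3G49260), AT1G72200 and AT2G39110, with means of -2.89, -2.74 and -2.68. AT2G47120, a short-chain dehydrogenase gene, showed a low line 2 (-3.49) beside equal values in lines 1 and 3 (-2.12 and -2.11). The list of the 12 lowest means closes with AT3G28270 (-2.56), AT3G45730 (-2.52), AT3G11180 (-2.46) and ATG8H (-2.39).

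The values of these genes were not equally low in the 3 lines. Each line was measured on 1 array, so a difference between lines and one between arrays cannot be told apart. The median over the 113 genes was -1.83 in line 1, -1.65 in line 2 and -1.53 in line 3. Line 3 was the least lowered of the 3 for 52 genes and the most lowered for 13, whereas line 1 was the most lowered for 58. Lines 2 and 3 were the most alike: their values differed by more than 2-fold for 3 genes, against 14 for lines 1 and 2 and 8 for lines 1 and 3. Across the 113 genes, which share their arrays and were cut at the same limit, lines 2 and 3 had a Pearson correlation of 0.819, against 0.526 between lines 1 and 3 and 0.377 between lines 1 and 2. Over all measured genes, after turning, the same correlations were 0.784, 0.477 and 0.488. Lines 2 and 3 were thus the most alike there too, and this is not particular to the 113 genes.

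**Figure D2:**
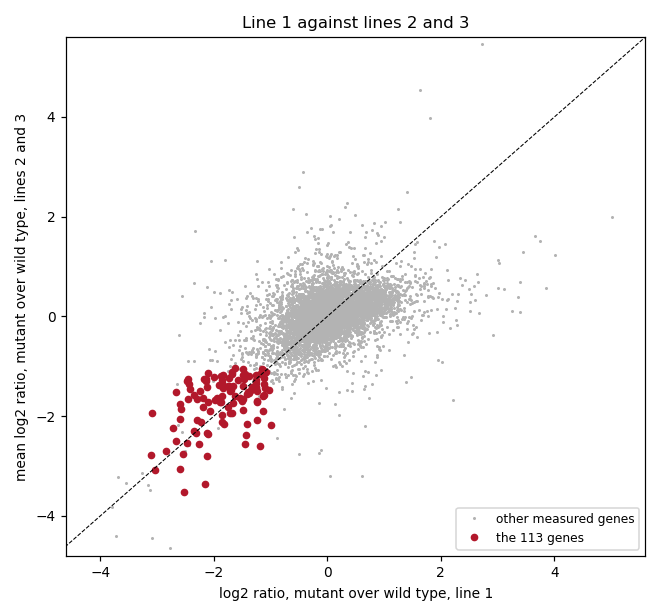
Log2 ratio in line 1 (horizontal axis) against the mean log2 ratio of lines 2 and 3 (vertical axis), mutant over wild type, for the 113 genes (red) and the other measured genes (grey). The dashed diagonal marks equal values; 65 of the 113 genes were lower in line 1 than in the mean of lines 2 and 3, and 48 were higher.

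All 113 genes were lower in every line by the rule, but the size differed between lines, which was not tested. Line 1 was lower than the mean of the other lines by more than 1.5-fold for 21 genes (18.6% of the 113, against 9.21% of all measured genes) and higher by as much for 10 (8.85%, against 8.74%). Among the first were the GDSL lipase gene AT1G54790, at -2.46, -1.16 and -1.36 in lines 1, 2 and 3, and AT1G76620, at -3.09, -1.96 and -1.93. The alcohol dehydrogenase-like gene AT5G24760 had values of -2.48, -1.27 and -1.32. In these 3 genes lines 2 and 3 lay close together and line 1 well below them. The reverse was seen for AT5G62150, a LysM-domain gene, at -1.18, -3.01 and -2.19, and for RCA, the Rubisco activase gene, at -0.9999, -2.41 and -1.95. AT5G62150 had the largest SD of all, 0.92, followed by the acyltransferase gene AT5G16410 (0.90), AT2G47120 (0.79), AT5G55970 (0.77) and RCA (0.72). In all 5, line 2 was the lowest. Line 2 is also the array with the opposite dyes, and for a single gene the plant and the dye orientation cannot be told apart there. Line 2 was lower than the mean of lines 1 and 3 by more than 1.5-fold for 11 of the 113 genes (9.73%, against 4% of all genes) and higher for 7 (6.19%, against 4.68%). The 113 genes were chosen by these same ratios, whereas the median over all genes lies near 0 (0.013). The shares over all genes, for line 1 and for line 2, are therefore not a like background, and nothing is read from the differences.

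At the other end, 16 genes had an SD under 0.1 over the lines. The steadiest was AT3G56740, with -1.13, -1.08 and -1.06 (SD 0.036), which also had the mean nearest to the limit. AT3G15040 was at -1.75, -1.84 and -1.79, and the co-chaperone gene AT3G03773 at -1.27, -1.20 and -1.15. AT3G03210 and AT5G39785 had SDs of 0.060 and 0.061 about means of -1.43 and -1.60. Values ran on across the limit without a gap. Just inside it, judged by the least lowered line, were RCA (-0.9999, which meets the limit as rounded), AT5G66330 (-1.01), AT1G67510 and AT5G42760 (-1.01 each) and AT3G56130 (-1.02). Just outside were AT2G39850 (-0.9966), AT5G54585 (-0.99), AT5G50360 (-0.98), AT1G68670 (-0.97) and AT4G18740 (-0.97). A further 80 genes had a mean at least 2-fold lower without reaching the limit on every array, and for 33 of them line 1 alone fell short.

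Protein families named below are background knowledge of Arabidopsis loci, since the gene table pairs most locus codes with no protein name. A role could be given for 71 of the 113 genes, and 42 are left without one.

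**Figure D3:**
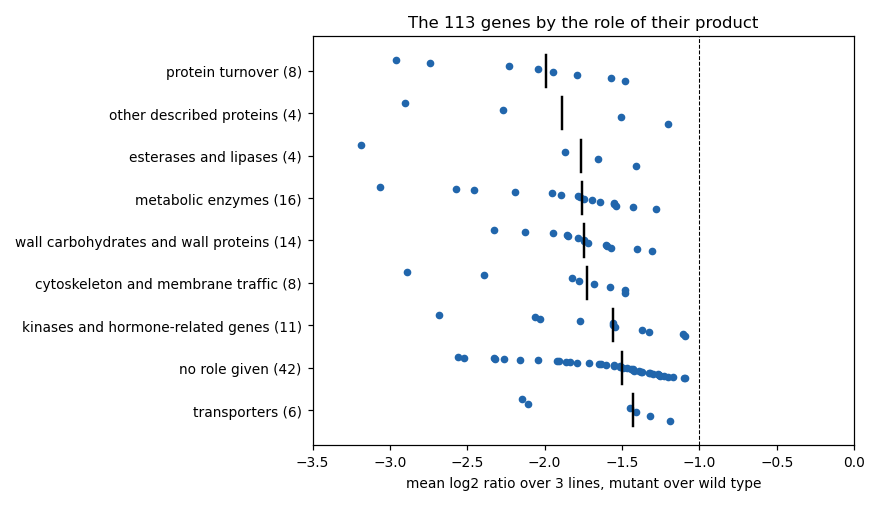
Mean log2 ratio over the 3 lines (mutant over wild type, horizontal axis) of each of the 113 genes, by the role of its product, with the number of genes in brackets. Vertical bars mark the median of each group, which lies between -1.99 (protein turnover) and -1.43 (transporters), and the dashed line marks a 2-fold decrease.

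Genes for wall carbohydrates and wall proteins formed a group of 14, with a median of the means of -1.75. Lowest was AT5G35740, at -2.31, -2.44 and -2.22 in lines 1, 2 and 3. It encodes an X8-domain protein, a type of domain that binds callose-like glucans, and a second X8-domain gene, AT1G26450, was at -1.71, -1.59 and -1.41. Both pectin lyase-like genes, of the family that holds polygalacturonases, had close means: AT1G19170 was at -1.95 ± 0.22 and AT3G42950 at -1.85 ± 0.28 (SD, n = 3 lines). In both, line 1 was the lowest.

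Glycosyltransferase genes were also among these 14. GALT1 (AT1G26810), whose enzyme adds galactose to N-glycans of secreted proteins, measured -1.95, -1.65 and -1.63. AT3G10320 was at -1.60 ± 0.12, the core-2/I-branching type gene AT1G53100 at -1.60 ± 0.14, and the galactosyltransferase-family gene AT1G05170 at -1.31 ± 0.33. AT3G57420, for a Golgi protein of the STELLO family, which is needed for the assembly and delivery of cellulose synthase, had values of -1.84, -1.24 and -1.12. The other STELLO gene, AT2G41770, was outside the limit at -1.49, -1.09 and -0.68 (limma adjusted p = 0.062), with the lines in the same order as for AT3G57420. The remaining genes of the group were AT5G62150, the thaumatin-family gene AT4G36010 (-1.86 ± 0.18), the putative methyltransferase gene AT2G45750 (-1.78 ± 0.18) and a pair for hydroxyproline-rich glycoproteins. The pair, AT4G25620 and AT1G17620, had line 1 values of -2.25 and -2.44 and line 3 values of -1.55 and -1.15, so that the lines lay apart.

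Genes of the cytoskeleton and of membrane traffic numbered 8. The lowest was iqd21, which encodes an IQ-domain protein, of a family that binds calmodulin and often microtubules. It was at -3.11, -2.79 and -2.77 in lines 1, 2 and 3, or 7.41-fold lower, with all lines more than 6-fold below wild type. AT3G23090, listed in the gene table as WDL3, encodes a microtubule-binding protein of the WAVE-DAMPENED2-like family and measured -2.20, -1.69 and -1.57. The ARM-repeat genes AT5G62580 and AT1G27210 were at -1.78 ± 0.11 and -1.58 ± 0.53 (SD, n = 3 lines), the first even across lines and the second not. DL1B (AT3G61760), for a dynamin-like GTPase that pinches membranes, was at -1.40, -1.44 and -1.60. AT3G58600, for a protein associated with vesicle coats, stood at -1.48 ± 0.09. The remorin-family gene AT1G67590, whose product belongs to a family of plasma membrane proteins, stood at -1.68 ± 0.21. ATG8H (AT3G06420), for a ubiquitin-like protein that is attached to autophagosome membranes, was at -2.71, -2.21 and -2.26, the second lowest of the group.

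Kinases and hormone-related genes made up 11 of the 113, of which 8 encode protein kinases. AT2G39110 was the lowest, with -2.54, -2.81 and -2.70 in lines 1, 2 and 3, and its lines lay close together. AT5G59670, for a leucine-rich-repeat receptor kinase, had -1.44, -2.40 and -2.34, and AT1G69790 had -1.86, -2.50 and -1.73. Line 1 was instead the lowest for AT1G24030 (-2.41, -1.31 and -1.60), AT4G26540 (-2.18, -1.30 and -1.21) and AT2G40120 (-2.14, -1.32 and -1.18). Receptor kinase genes AT3G03770 and AT1G67510 were among those nearest the limit, with means of -1.11 and -1.10. The leucine-rich-repeat gene AT5G66330 was at -1.32 ± 0.34. GH3.9 (AT2G47750), of the family that joins amino acids to auxin and related acids, measured -1.24, -1.79 and -1.65. AT2G04850, of an auxin-responsive cytochrome b family, was at -1.58, -1.51 and -1.02.

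Protein turnover gave 8 genes, with the lowest group median, -1.99. RING-finger genes, most of which encode ubiquitin ligases, were 5 of them. Besides AT5G55970, these were AT1G72200 at -2.84, -2.79 and -2.60, AT1G72220 at -2.60, -1.95 and -2.15, AT1G32740 at -1.94 ± 0.09 and AT5G45290 at -1.57 ± 0.26 (SD, n = 3 lines). In AT1G72200 the lines were nearly equal. AT1G23390, a kelch-repeat F-box gene whose product marks chalcone synthase of flavonoid synthesis for breakdown, was at -1.23, -2.04 and -2.11, with line 1 the least lowered. The aspartyl protease genes AT4G16563 (-2.59, -2.05 and -1.48) and AT4G04460 (-2.003, -1.14 and -1.29) had line 1 as the lowest.

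Besides AT5G47330 and AT1G54790, the 4 esterase and lipase genes included the GDSL lipase gene AT2G23540, at -2.29, -1.63 and -1.68, and the carboxylesterase gene CXE20 (AT5G62180), at -1.74, -1.34 and -1.14. Line 1 was the lowest for 3 of the 4, all but AT5G47330.

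Metabolic enzymes were the largest group with a role, 16 genes with a median of -1.76. Enzymes of the shikimate pathway were represented by AT1G22410, for DAHP synthase, which catalyses the first step, and AT2G45300, for EPSP synthase, a late step and the target of glyphosate. AT1G22410 had values of -2.67, -1.44 and -1.58 in lines 1, 2 and 3, whereas AT2G45300 was even, at -1.35, -1.50 and -1.44. Carbon supply was represented by ACLA-2 (AT1G60810), a subunit of ATP-citrate lyase, which makes cytosolic acetyl-CoA, at -1.85, -1.11 and -1.70. AT2G31390, for a fructokinase, which phosphorylates the fructose released from sucrose, was at -1.90, -1.21 and -1.55. AT2G26800, for HMG-CoA lyase of leucine breakdown, was at -2.08, -1.74 and -2.05, and AT5G50370, for an adenylate kinase, at -1.77 ± 0.09.

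Oxidative enzymes and enzymes of specialised metabolism also appeared. AT3G11180, for a 2-oxoglutarate-dependent oxygenase of the family that hydroxylates jasmonate, was at -2.26, -2.71 and -2.41. AT1G55290, listed in the gene table as a second feruloyl-CoA hydroxylase gene, of the enzyme that leads to scopoletin, was at -1.49, -2.07 and -1.67. AT2G38380, a class III peroxidase gene, measured -1.24, -2.14 and -1.24, with line 2 the lowest. The pirin-like gene AT1G50590 was at -1.14, -1.75 and -2.03, and AT5G16410 at -1.45, -3.19 and -1.93.

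Among the genes given a role, few were of photosynthesis and photorespiration. The rule leaves out the photosynthesis gene PRK by name, so a low number here is partly set by the rule. RCA, whose product keeps Rubisco active, AT1G11860, for the T-protein of the glycine decarboxylase complex, and LrgB (AT1G32080), for the plastid transporter of glycolate and glycerate, had means of -1.79, -1.28 and -1.32. AT1G11860 measured -1.48, -1.31 and -1.06 in lines 1, 2 and 3, and LrgB -1.10, -1.56 and -1.30. Green cortex markers stood beside them as follows. Of 6 markers, 3 were measured, and LHCB4.1, LHCB4.2 and LHCB4.3, for antenna proteins, had means of -0.86 ± 0.44, -0.63 ± 0.63 and -0.75 ± 0.16. By limma over all genes, with a Benjamini-Hochberg adjusted p, LHCB4.3 fell (0.048, or 0.050 with a robust variance prior, just past the threshold, and 0.201 with a dye term) and the others were not called (0.094 and 0.239). Their part in the values of RCA, AT1G11860 and LrgB was not tested.

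Transporter genes numbered 6 with LrgB. OCT5 (AT1G79410), of the organic cation and carnitine transporter family, was lowest at -2.29, -2.10 and -2.05, with all lines close. AT4G15430, of the ERD4 family of membrane proteins, was at -2.58, -1.97 and -1.76. AT2G26690, listed as NPF6.2 and belonging to the nitrate and peptide transporter family, was at -2.10, -1.02 and -1.23, close to the limit in line 2. SFP1 (AT5G27350), of a sugar transporter family, had -1.24, -1.77 and -1.22, and AT2G20780, of the polyol transporter family, -1.12, -1.21 and -1.24. The other described genes included the ankyrin-repeat gene AT1G11740, at -2.27 ± 0.25, and the zinc finger gene AT3G49930, at -1.51 ± 0.42 (SD, n = 3 lines).

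The 42 genes without a role had means from -2.56 to -1.09, with a median of -1.50. Next to AT3G28270 and AT3G45730, the lowest were AT1G76620, AT5G54240 (-2.36, -2.13 and -2.48), AT3G03150 (-2.12, -2.34 and -2.32) and AT2G42760 (-2.22, -1.99 and -2.26). AT5G54240, AT3G03150 and AT2G42760 were more than 3-fold lower in every line, with SDs from 0.12 to 0.18.

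For 18 families and pathways that hold 1 or more of the 113 genes, the other measured genes were set beside them. These families were chosen after the members and the values of their relatives had been seen: of 10 name patterns tried, 5 were kept, and the 5 not kept held 37 further measured genes outside the 113, of which 2 were called lower (ATL8 and GSTU18). Cross-hybridisation between similar genes was not analysed. Outside the 113, the families held 63 measured genes, and limma called 2 of them lower and none higher at a Benjamini-Hochberg adjusted p under 0.05. Over all 9253 genes the same test called 241 lower (2.6%) and 73 higher (0.789%), 3.39% in all. These shares count the 113 genes in, whereas the 63 leave them out, so they are not a like background. The count of 2 became 7 with arrays centred or divided by their median absolute value and 12 without line 1. It became 0 with the planned scaling call, with a dye term, without line 2 and without line 3.

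In several of the chosen families only 1 measured gene was within the limit, and most of its relatives, which lie outside it by the rule, were within 1.5-fold of wild type. Of 9 measured ATG8 genes, ATG8H was at -2.39 and the other 8 lay between -0.66 (ATG8E) and 0.20 (ATG8G), none of them called by limma. Even ATG8E, the next lowest, was at -0.27, -0.85 and -0.85. Of 13 measured IQ-domain genes, iqd21 was at -2.89 and the other 12 between -0.83 (iqd33) and 0.48 (IQD23). Values of iqd33 were -1.56, -0.60 and -0.33, so that line 1 alone was past 2-fold. Among 5 measured WAVE-DAMPENED2-like genes, AT3G23090 was at -1.82, while AT4G32330 was at -0.74 ± 0.50 and AT2G25480 at 0.96 ± 0.46, with line values of 0.45, 1.10 and 1.33. GH3.9 was at -1.56, against values between -0.14 and -0.01 for the other 3 measured GH3 genes, GH3.1, GH3.3 and GH3.17. In the nitrate and peptide transporter family, AT2G26690 was at -1.45 and the other 10 genes between -0.38 (AT1G68570) and 0.59 (AT3G21670, listed as NPF6.4).

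Values of close homologues are set side by side without a test, since the rule placed 1 of each pair inside the limit and the other outside it. SFP1 was at -1.24, -1.77 and -1.22 in lines 1, 2 and 3, against 0.03, 0.44 and 0.19 for SFP2 (AT5G27360). AT1G55290 was at -1.74 ± 0.30, against 0.07 ± 0.33 for the other feruloyl-CoA hydroxylase gene, AT3G13610 (SD, n = 3 lines). DL1B was at -1.48 ± 0.10, against -0.03 ± 0.04 for DL1D (AT2G44590). The fructokinase gene AT2G31390 was at -1.55. Of the 4 other measured fructokinase genes, AT3G59480 was at -0.63, -1.003 and -1.16 (limma adjusted p = 0.051), and the other 3 lay between -0.10 and 0.05. In leucine breakdown, AT2G26800 was at -1.95, against 0.23, -0.19 and 0.06 for MCCA, MCCB and IVD.

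Among relatives not given above, the transporter genes OCT1, OCT4 and AT2G18480 had means of -0.82 (-1.90 in line 1), 0.01 and 0.55. The carboxylesterase genes CXE16 and CXE18 were at -0.25 and -0.31, and AT1G28680, of scopoletin synthesis, at -0.12. None of these was called by limma. The last values are of 3 pathways, in which limma called 2 relatives in all. Of 20 listed genes of the shikimate pathway and phenylalanine synthesis, 4 were measured, and 2 of these are among the 113. AT5G66120, for dehydroquinate synthase, fell with -0.88, -0.70 and -0.75 (limma adjusted p = 0.041). AT1G48860, for a second EPSP synthase, was at -0.59, -0.97 and -0.71 and was not called (limma adjusted p = 0.051). ATP-citrate lyase was similar: next to ACLA-2 at -1.55, ACLA-3 fell with a mean of -0.89 ± 0.12 (limma adjusted p = 0.037), while ACLA-1 at -0.85 ± 0.26 and ACLB-1 at -0.52 ± 0.51 were not called (limma adjusted p = 0.054 and 0.240). In photorespiration, the 4 measured genes outside the limit had means from -0.97 (HPR, hydroxypyruvate reductase) to -0.35 (AT1G80380, glycerate kinase), and none was called.

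**Figure D4:**
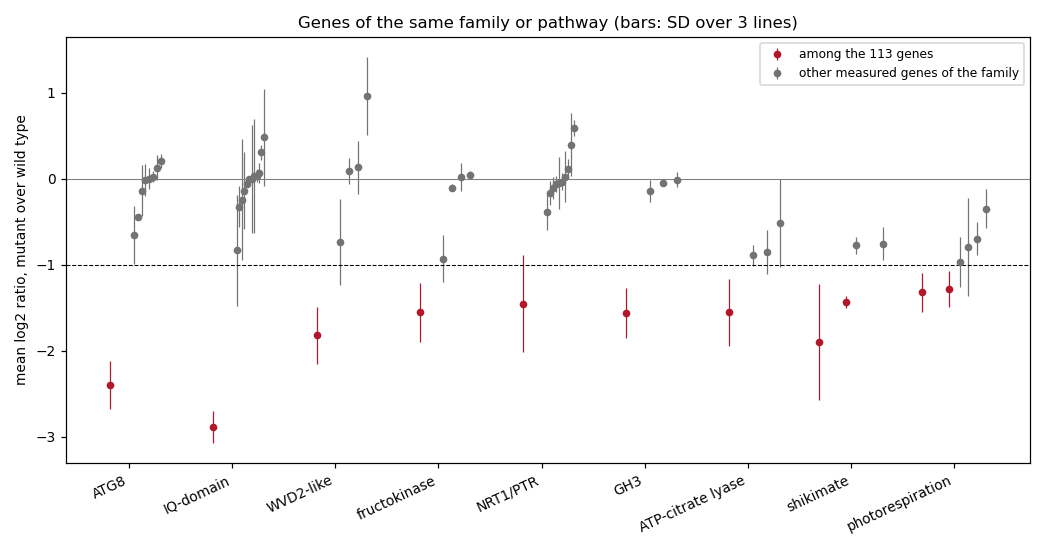
Mean log2 ratio (mutant over wild type, vertical axis, bars SD over 3 lines) of genes in 9 families or pathways, with those among the 113 genes in red and the other measured genes in grey. The dashed line marks a 2-fold decrease; ATG8H at -2.39 and iqd21 at -2.89 are shown beside relatives that lie between -0.83 and 0.48, while the other ATP-citrate lyase and shikimate genes lie between -0.89 and -0.52.

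Genes next to the 113 on the chromosome were compared as well. Of 224 protein-coding neighbours in the gene table, 72 were measured and are not themselves among the 113. None of these 72 was called by limma at an adjusted p under 0.05, against 3.39% of all genes. An unadjusted limma p under 0.05 was found for 19 of the 72, and for 2386 of all 9253 genes. The figures for all genes count the 113 in, whereas the 72 leave them out, so nothing is read from either comparison. The median log2 ratio of the 72 was -0.01. The count of 0 became 1 with centred arrays, 2 with arrays divided by their median absolute value and 9 without line 1, in both directions. The nearest to a call had higher values in the mutant: AT3G01800 was at 0.84 ± 0.22 and AT1G80130 at 1.602 ± 0.60 (limma adjusted p = 0.0502 and 0.059). Among lower values the nearest were AT4G37250, at -0.45 ± 0.08, and AT5G62140, next to AT5G62150, at -0.86 ± 0.34 (limma adjusted p = 0.068 for each). Among the 113 themselves, OCT5 and AT1G79420 are adjacent, with means of -2.14 and -1.63, and so are AT3G03770 and AT3G03773, with means of -1.11 and -1.20. AT1G72200 and AT1G72220 are separated by 1 gene, AT1G72210, which was at -0.45, 0.10 and -0.71 in lines 1, 2 and 3. AT3G55890 and AT3G55910, with means of -1.65 and -1.37, are likewise separated by 1 gene. The gene spans in these pairs do not overlap in the table.

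Wall and tissue genes from 13 lists served as a wider background, but only 6 of their 117 genes were measured. The lists of secondary wall transcription factors, secondary wall cellulose and wall proteins, microtubules and wall pattern, xylem cell death, laccases, nucleotide sugars and auxin transport were without a measured gene. So were those of shikimate, phenylalanine and methyl supply, and of cambium and starch sheath markers. None of these lists was used here. Lists were matched by locus through the Entrez identifier. The 4 measured shikimate genes above are not on them, but on a list made by hand. Phloem markers SWEET11, a sucrose exporter gene, and CLE41, for a signalling peptide, were at 2.28, 0.16 and -0.50 and at -0.10, -0.26 and 0.40. The epidermal wax synthase gene WSD1 was at -0.03 ± 0.08 (SD, n = 3 lines). None of these 3 was called by limma (adjusted p = 0.557, 0.976 and 0.821), and SWEET11 stood apart in line 1.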

How the data were processed

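Total RNA of 3 nst1-1 nst3-1 samples was hybridised with wild-type RNA on 3 two-colour arrays. The deposited values are 1 log10 ratio per spot, for 22236 spots. Log base 10 was read from the lowest value, exactly -2; scanner, background and dye corrections are not given in the sources used here. On every array the median deposited log10 value was 0; how the ratios were centred is not given in the sources used here. Intensities were not used, so signal over background is unknown.

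Here, the 9335 spots with 1 listed gene were named by the platform annotation, with names updated through Entrez identifiers (assembly TAIR10.1; 9317 matched), turned for line 2, converted to log2 and averaged to 9253 genes. The 12861 spots with no listed gene and the 40 with several were not used. Members had a ratio at least 2-fold lower on all 3 arrays. limma 3.58.1 (R 4.3.3; lmFit and eBayes against 0, two-sided, Benjamini-Hochberg adjusted p under 0.05) was run on all genes, checked on simulated data and quoted only for genes outside the rule. The simulated data held independent noise with no dye, array or shared wild-type effect, so that check cannot speak to these effects. Wild type is on every array, so the test leaves out its own spread if it was 1 extract. Members, lists and families were chosen with earlier results of these data known; the gene table has no protein names, so planned family patterns were replaced by families made by hand after values were seen (5 of 10 name patterns tried were kept). Genes are named by rank of mean, SD, nearness to the limit, symbol, family and adjacency, and further members of each role group were named after their values were seen. Alternatives were centring, scaling in 2 ways (1 added after the other had given no calls), spots singly, thresholds, log base, dye term, robust prior and leaving out each line. Sequences were not used here.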

Additional observations from a re-analysis of the deposited data

How the results depend on the processing

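Causes below were not tested unless the setting's own construction shows them. The 113 genes numbered 113 with centred arrays, with values of exactly 0 left out and without any 1 line (by construction), 82 with the planned scaling call, 106 with arrays divided by their median absolute value, and 112 with each spot on its own. Of the 134 genes of the rule, 52 were 3-fold lower on every array (35 of the 113) and 30 were 4-fold lower (16). A mean at least 2-fold lower was met by 214. Read as log2, 2 genes passed and none of the 113; with line 2 as deposited, 2 passed and none of the 113, since opposed signs cannot both be low. Leaving out 1 line gave 151 to 199 genes. No mean of the 113 turned its sign or moved by its SD under centring, either scaling or a left-out line. Keeping the sign there follows from the rule. With 3 values, leaving out 1 line cannot move a mean by its SD. Centring moved the means by 0.011, below the smallest SD of 0.036, so neither of these could have failed.

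The limma calls depended on the arrays. Main counts were 241 lower and 73 higher, or 76.8% lower. The planned scaling, limma's normalizeBetweenArrays with method scale, gave 0 and 0, 0 listed and 0 family calls. The smallest limma adjusted p was 0.0987, and 2081 genes had an unadjusted p under 0.05. On a plain matrix it divided lines 1, 2 and 3 by 0.88, 0.90 and 1.26. These divisors are in proportion to the array medians, which themselves lie near 0 (0.0098, 0.010 and 0.014). Division by the median absolute value was added after the lack of calls had been seen, and gave 347 and 177, or 66.2% lower. Both counts were 0 with a dye term (1592 genes at an unadjusted p under 0.05), which leaves 1 residual degree of freedom. Without 1 line they ranged from 0 to 583 lower and from 0 to 574 higher, with no call without line 2 (1373 unadjusted) or line 3 (1430), each on 2 arrays. Of the listed genes, the 1 call (LHCB4.3) became 0 with the robust prior and the dye term, and 0 to 3 without 1 line. Of the added families, the 2 calls became 7 with centring and with the added scaling, 0 with the dye term, and 0 to 12 without 1 line. Of the 72 neighbouring genes, 0 calls became 1 with centring, 2 with the added scaling, and 0 to 9 without 1 line. ACLA-1 (limma adjusted p = 0.0495 centred, 0.041 with the added scaling) and AT1G48860 (0.047 and 0.049) passed there; AT2G41770 passed with the added scaling (0.041) and AT3G59480 with centring (0.047). Each array already sets 1 mutant sample against wild type, so the test of the ratios against 0 uses that pairing. No further pairing was possible because only 1 group carries replicate numbers.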
